A study of Mus musculus with 2 samples.

Results

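The genes described are those of the inter-alpha-trypsin inhibitor family and of the Serpina3 serpins in mouse liver. They were taken by name, as Itih1, Itih2, Itih3, Itih4, Ambp, Serpina3n, Serpina3m, Serpina3k and Serpina3g. A gene was measured when the array's annotation gave a probe set, the group of probes that reads 1 transcript, to that gene and no other. This held for 6 of the 9 genes, with 1 probe set each, out of 13117 genes whose signal passed a filter on brightness. Serpina3m, Serpina3k and Serpina3g had no such probe set and were not analysed here.

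Both groups were male wild-type C57BL/6 mice, 8 weeks old. In one group both kidneys were kept ischaemic and warm for 30 minutes before blood flow returned, the other group had sham surgery, and livers were collected after 24 hours. In each group 100 mg of frozen liver from 3 mice was pooled, and each pool went onto 1 Affymetrix array, which gave 2 samples without replication. The spread between mice is therefore unknown, no test was possible, and every difference below describes these 2 pools. A fold in whole-liver RNA can come from the number of cells of a type or from the RNA of each cell, and these cannot be told apart.

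Inter-alpha-trypsin inhibitor is a plasma protein made by hepatocytes. Its heavy chains are joined to bikunin, a small inhibitor of trypsin-like proteases, through a chondroitin sulphate chain, and they can be passed on to hyaluronan in tissue matrix. Ambp encodes the precursor that is cleaved into bikunin and alpha-1-microglobulin, a haem-binding lipocalin. Serpins are inhibitors that trap a protease on an exposed loop, and mice carry a cluster of Serpina3 genes where humans have the antichymotrypsin gene SERPINA3. Liver output of several of these proteins is known to shift in the acute phase response.

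The DNA just before the start of 4 of the genes is shown. Of the measured genes, Serpina3n, Itih4 and Itih3 were those at least 2-fold higher after renal injury, and only Itih1 was lower, slightly. The sequences are from RefSeq on GRCm38.p6, cover the 250 bases before the start that its table uses for the gene, and read 5′ to 3′ in the direction of the gene. Capitals mark matches, on either strand, to 5 searched motifs: TTCNNNGAA for STAT factors, TTGCNNAA for C/EBP factors, the core GTTAAT for HNF1, GGGANTTNC for NF-kB and ACANNNTGT for the glucocorticoid receptor. Serpina3n lies on the plus strand at chr12:104406458-104406707, Itih4 on the plus strand at chr14:30886226-30886475, Itih3 on the minus strand at chr14:30923588-30923837 and Itih1 on the minus strand at chr14:30943290-30943539.
Serpina3n: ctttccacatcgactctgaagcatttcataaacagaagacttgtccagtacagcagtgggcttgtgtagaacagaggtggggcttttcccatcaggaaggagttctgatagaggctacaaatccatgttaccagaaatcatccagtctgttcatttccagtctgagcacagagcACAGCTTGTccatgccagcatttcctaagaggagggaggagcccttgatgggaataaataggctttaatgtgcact
Itih4: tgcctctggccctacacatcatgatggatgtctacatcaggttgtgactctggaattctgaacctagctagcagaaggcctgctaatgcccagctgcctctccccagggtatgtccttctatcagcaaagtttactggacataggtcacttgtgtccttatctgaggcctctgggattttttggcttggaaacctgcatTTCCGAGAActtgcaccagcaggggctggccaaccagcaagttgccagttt
Itih3: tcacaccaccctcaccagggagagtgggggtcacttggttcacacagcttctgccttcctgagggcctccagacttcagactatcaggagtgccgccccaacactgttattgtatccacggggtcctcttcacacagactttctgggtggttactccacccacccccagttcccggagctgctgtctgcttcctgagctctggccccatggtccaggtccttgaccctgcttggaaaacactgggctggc
Itih1: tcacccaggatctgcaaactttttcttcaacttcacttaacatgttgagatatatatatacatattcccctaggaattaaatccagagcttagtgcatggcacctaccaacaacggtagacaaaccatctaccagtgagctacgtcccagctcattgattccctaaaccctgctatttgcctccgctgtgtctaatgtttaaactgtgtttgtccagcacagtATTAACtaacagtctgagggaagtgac

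The windows differed in what they held. That of Serpina3n had 1 match to the glucocorticoid receptor motif, ACAGCTTGT, at bases -76 to -68 from the start. The window of Itih4 had 1 STAT match, TTCCGAGAA, at -51 to -43, and that of Itih1 had 1 HNF1 core at -27 to -22. That of Itih3 had none of the 5 motifs. A window was also given for Itih2, Ambp and Serpina3g, 7 of the 9 genes in all. Itih2 had 1 C/EBP match at -33 to -26, Ambp had none and Serpina3g had 1 STAT match, TTCCCAGAA, at -33 to -25. Among 32841 windows of the same length before the starts of mouse genes, a STAT match was found in 7.0%, a C/EBP match in 9.6%, an HNF1 core in 6.4%, an NF-kB match in 3.5% and a glucocorticoid receptor match in 5.8%. A match describes letters, not binding.

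Of the 6 measured genes, 5 had a higher signal in the renal ischaemia-reperfusion pool and 1 a lower one. Serpina3n, Itih4 and Itih3 were at least 2-fold higher, Itih2 and Ambp were higher by less than 2-fold, and Itih1 was slightly lower. Among all genes past the filter, 8.71% passed 2-fold upwards and 9.59% downwards. All 6 genes were bright, standing among the 656 genes (5%) with the highest mean signal, and there the shares were 12.5% and 14.8%. The median log2 difference of the 6 genes was 1.15, against -0.01 over all genes and 0.05 over the 656 brightest. The genes were chosen with earlier results of these data known, so this contrast is a description only. Differences subtract the sham value from the value after renal ischaemia-reperfusion on the scale of log2(signal + 16), and folds are on that scale too. Signals are not compared between genes, because each probe set has its own brightness.

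**Figure D1:**
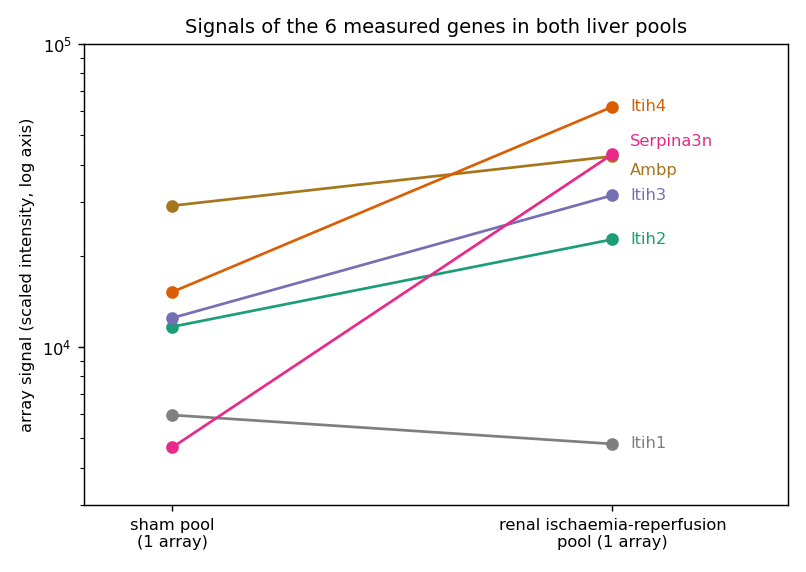
Array signal (log axis) of the 6 measured genes in both liver pools, 1 array each, with a line joining the values of a gene. The line of Serpina3n climbs from 4660 to 43276 and that of Itih1 dips from 5962 to 4787; the heights of different genes are not comparable.

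Among the heavy chains, Itih4 differed most. It encodes a heavy chain that, in humans, circulates without bikunin and is cut by plasma kallikrein. Its signal was 15188 in sham liver and 62061 after renal ischaemia-reperfusion, 4.08-fold higher (log2 difference 2.03). This placed Itih4 263rd of 13117 genes in order of difference from the highest. The value after renal injury was above the highest signal of any probe set on the sham array, 55427, so it lies where the arrays were not matched in range.

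Itih3, the heavy chain of pre-alpha-inhibitor, which pairs with bikunin alone, came next. Its signal went from 12467 in the sham pool to 31671, 2.54-fold higher (log2 difference 1.34), the 686th highest difference. Itih2, which with the Itih1 chain and bikunin makes up inter-alpha-inhibitor, had signals of 11662 and 22654, 1.94-fold higher (0.96). It stood 1219th and just missed the 2-fold threshold.

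Itih1 went the other way. Its signal was 5962 in the sham pool and 4787 after renal ischaemia-reperfusion, 1.24-fold lower (log2 difference -0.32). Of all genes, 31.1% had a lower difference than Itih1, which put it inside the middle range of the array, whose quartiles were -0.45 and 0.42. Itih2, its partner in the plasma complex, stood 1.27 above Itih1 in log2 difference.

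Ambp, the source of bikunin, had signals of 29262 and 42603, 1.46-fold higher (log2 difference 0.54). A lower difference was found for 79.9% of genes. The heavy chain Itih2 stood 0.42 above Ambp, and Itih1 stood 0.86 below it.

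Serpina3n had the largest difference of the 6 genes. It encodes a secreted serpin that in mice inhibits granzyme B and chymotrypsin-like proteases. Its signal was 4660 in sham liver and 43276 after renal ischaemia-reperfusion, 9.26-fold higher (log2 difference 3.21), the 49th highest of 13117 genes. It was 1.18 above Itih4 in log2 difference. The Serpina3 genes resemble one another in sequence, and whether this probe set also reads its relatives was not tested.

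**Figure D2:**
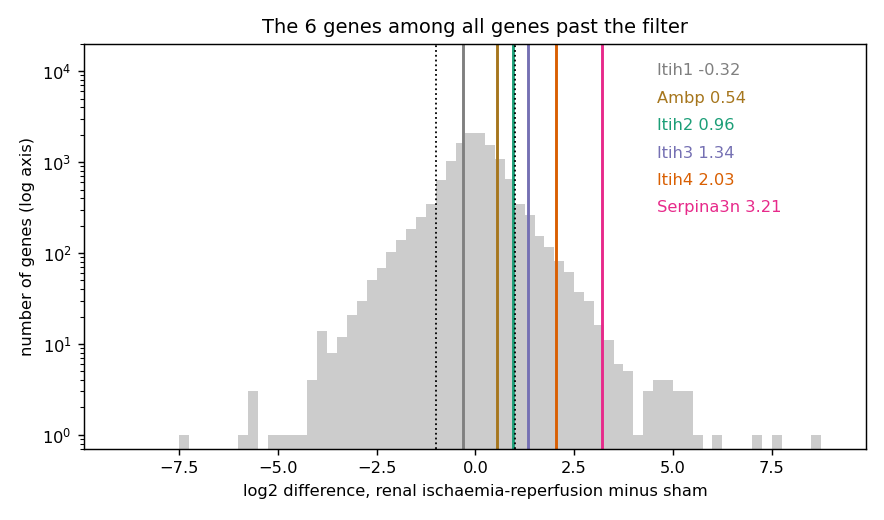
Number of genes (log axis) by log2 difference between the pools, for 13117 genes past the filter, with coloured lines at the 6 genes and dotted lines at 2-fold. Serpina3n (3.21), Itih4 (2.03) and Itih3 (1.34) lie right of the upper dotted line, and Itih1 (-0.32) lies among the bulk of genes.

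With 1 array per pool, the nearest measure of error was how far probe sets of the same gene disagreed. Over 5028 genes with several probe sets past the filter, the SD of the log2 difference within a gene was 0.72. Over 157 genes with several probe sets as bright as the 656 brightest genes, it was 0.28, and 2 such probe sets differed from each other with an SD of 0.39. The differences of Serpina3n, Itih4, Itih3 and Itih2 were larger than both values within a gene, although that of Itih2 was 0.67 under 2 of the scalings below. That of Ambp was larger than 0.28 only, and it was under 0.28 by quantile normalization (0.11), with a loess trend removed (0.24) and relative to the hybridisation controls (0.26). That of Itih1 was close to 0.28 in size, but -0.60 relative to those controls. The gap of 2.35 between Itih4 and Itih1 and that of 1.27 between Itih2 and Itih1 exceeded 0.39 and also 1.02, the SD between any 2 probe sets of a gene. By quantile normalization Itih2 was 0.67 and Itih1 -0.33, a gap that did not exceed 1.02. The gap of 0.42 between Itih2 and Ambp did not exceed 1.02 and was near 0.39, as was that of 0.39 between Itih3 and Itih2. None of these SDs includes variation between mice.

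The order of the 6 genes by difference was the same in every setting tried, from Serpina3n down through Itih4, Itih3, Itih2 and Ambp to Itih1. Most settings could not change it. These genes were bright with 1 probe set each, so filters, raised dim signals and probe set rules left their values as they were. Median centring and the hybridisation controls shift every gene by the same amount. Only the pseudocounts, quantile normalization and the loess trend could have altered the order. The scaling moved the sizes. When all signals were set relative to 18 bacterial hybridisation controls, which themselves had a median log2 difference of 0.28, Itih2 stood at 0.67, Ambp at 0.26 and Itih1 at -0.60. On that reference 756 genes (5.76%) passed 2-fold upwards and 2016 downwards, so the upward share was 27.3% in place of 47.6%. Quantile normalization, which gives both arrays the same range, left Ambp at 0.11, Itih4 at 1.65 and Serpina3n at 2.99. The 3 genes at least 2-fold higher were above the threshold in all 13 settings, Itih3 with the least margin (1.05).

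**Figure D3:**
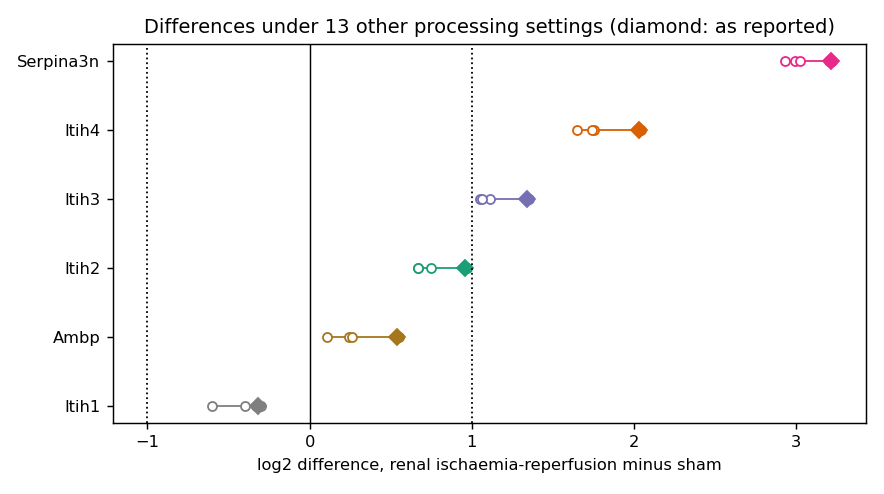
Log2 difference of each gene as reported (diamond) and under 13 other settings of scaling, filter, pseudocount and choice of probe set (open circles), with dotted lines at 2-fold. Serpina3n ranges from 2.93 to 3.22 and Itih4 from 1.65 to 2.04, whereas Ambp ranges from 0.11 to 0.55.

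Itih4, Itih3 and Itih1 are neighbours on chromosome 14, in that order and with no other protein-coding gene between them in the RefSeq table. Over these 3 adjacent genes the log2 difference ran from 2.03 through 1.34 to -0.32. Of the 5 protein-coding genes on each side, Nek4, a kinase gene next to Itih1, was at least 1.30-fold higher, its sham signal of 132.0 being under the array median. Spcs1, a subunit of signal peptidase, had a log2 difference of 0.83, and the other 6 measured neighbours lay between -0.39 and 0.60. Itih2 has its own place on chromosome 2 beside Itih5, another heavy chain gene. Itih5 went from 329.4 to 510.2 by its brightest probe set (log2 difference 0.61). Ambp lies on chromosome 4, where the third gene beyond it is Orm1, an acute phase glycoprotein with a log2 difference of 1.71. The genes between them, Kif12 (-0.13) and Col27a1 (-0.25), differed little.

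Serpina3n lies at one end of the clade A serpin cluster on chromosome 12. Its neighbours Serpina3m and Serpina3k, like most Serpina3 genes, had no probe set of their own. The other clade A serpins that were measured, named whatever their value, differed from Serpina3n. Of 11 that passed the filter, 1 passed 2-fold upwards, by a dim signal, and 2 downwards, against 8.71% and 9.59% of all genes. The median of the 11 was 0.12, but -0.10 by quantile normalization and -0.17 relative to the hybridisation controls. Within the Serpina3 group, Serpina3i had signals of 678.2 and 737.1 (log2 difference 0.12), and Serpina3a was under the array median in both pools (26.2 and 124.5), so no fold is given. The alpha-1-antitrypsin genes Serpina1b and Serpina1c, which restrain neutrophil elastase, had log2 differences of 0.56 and 0.46. Serpina1b was read by probe sets that can cross-hybridise.

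Further along the cluster the serpins ran both ways. Serpina10, the inhibitor of coagulation factor X that works with protein Z, went from 7671 to 14527 (0.92), though its probe set may cross-hybridise. Serpina6, the corticosteroid-binding globulin, was lower at -0.80 and Serpina11 stood at -0.25. Serpina12, known as the adipokine vaspin, had signals of 2625 and 374.4 (-2.76). The pseudogene Serpina4-ps1 was lower by all 3 of its probe sets, at -1.99, -2.87 and -2.34. Serpina1f (at least 1.20-fold higher), Serpina7 (at least 1.47-fold higher), which carries thyroxine and lies on another chromosome, and Serpina9 (at least 1.34-fold lower) each had 1 signal under the array median. Serpina5 was under it in both pools.

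**Figure D4:**
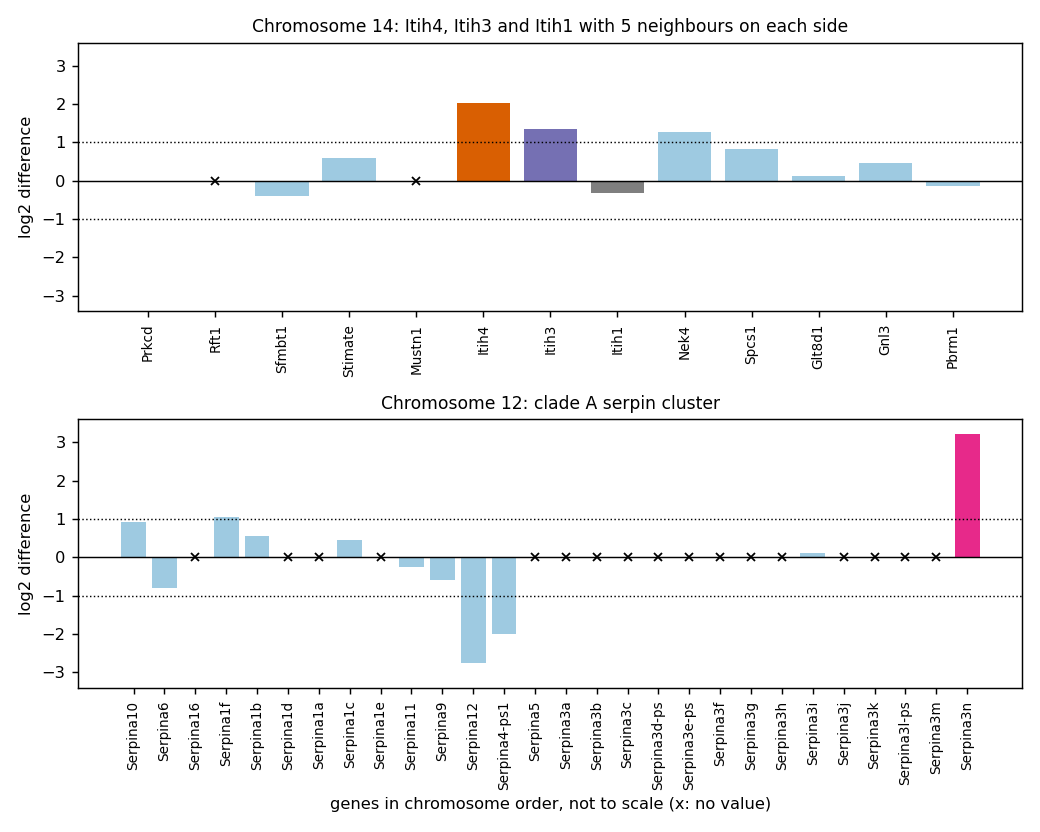
Measured log2 difference of genes in chromosome order, not to scale, for Itih4, Itih3 and Itih1 with their neighbours (top) and for the clade A serpin cluster (bottom), with dotted lines at 2-fold and a cross where no value was available. Serpina3n stands at 3.21 at the right end of its cluster, where Serpina3i (0.12) is the only other Serpina3 gene with a value. Serpina12 (-2.76) and Serpina4-ps1 (-1.99) lie well below 0.

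Other inhibitors made by the liver differed less than Serpina3n. For comparison, 8.71% of all genes passed 2-fold upwards and 9.59% downwards. Of 9 serpins of other clades past the filter, none passed 2-fold upwards and 1 passed it downwards (median 0.27, but -0.02 relative to the hybridisation controls). Serpind1, heparin cofactor II, was that gene (-2.51), and Serpinf1 was the next lowest (-0.28), though its probe sets differed in sign. Serpinh1, a collagen chaperone, was the highest (0.82), with a probe set that may cross-hybridise, followed by Serpinb9 (0.62), whose probe sets differed in sign. Of 18 inhibitors outside the serpin family, 1 passed 2-fold upwards and none downwards (median -0.01, but -0.30 relative to the hybridisation controls). That gene was Spink1, an inhibitor of trypsin made in pancreas and liver, which was dim, with signals of 32.3 and 254.8. The second signal lay under the sham array's median of 257.0, so no bound on a rise could be given. Timp1, an inhibitor of metalloproteases, stood at 0.86, and Slpi (-0.57) and Tfpi (-0.56) were the lowest, the probe sets of Tfpi differing in sign.

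The 19 other acute phase plasma proteins that passed the filter had a median of 1.24, against 1.15 for the inter-alpha-trypsin and Serpina3n genes in the same setting. The median of the 19 was 0.76 by quantile normalization, 0.91 with a loess trend removed and 0.96 relative to the hybridisation controls. Itih3 and Itih2, the middle of the other group, fell in these settings too. They stood at 1.05 and 0.67 by quantile normalization, 1.11 and 0.75 by loess, and 1.06 and 0.67 relative to the controls. Neither group stood clear of the other. Of the 19 proteins, 11 passed 2-fold upwards and 1 downwards, against 8.71% and 9.59% of all genes. Lcn2, lipocalin 2, was at least 189-fold higher and Saa2, a serum amyloid A, had a log2 difference of 7.12 from a probe set that may cross-hybridise, both well above Serpina3n (3.21). Crp (-1.77) and Cfb (-0.30) were the lowest. Apcs (3.32), the mouse serum amyloid P, and Lrg1 (2.42) were picked after their values were seen, as the nearest in this list to Serpina3n and to Itih4 from above.

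**Figure D5:**
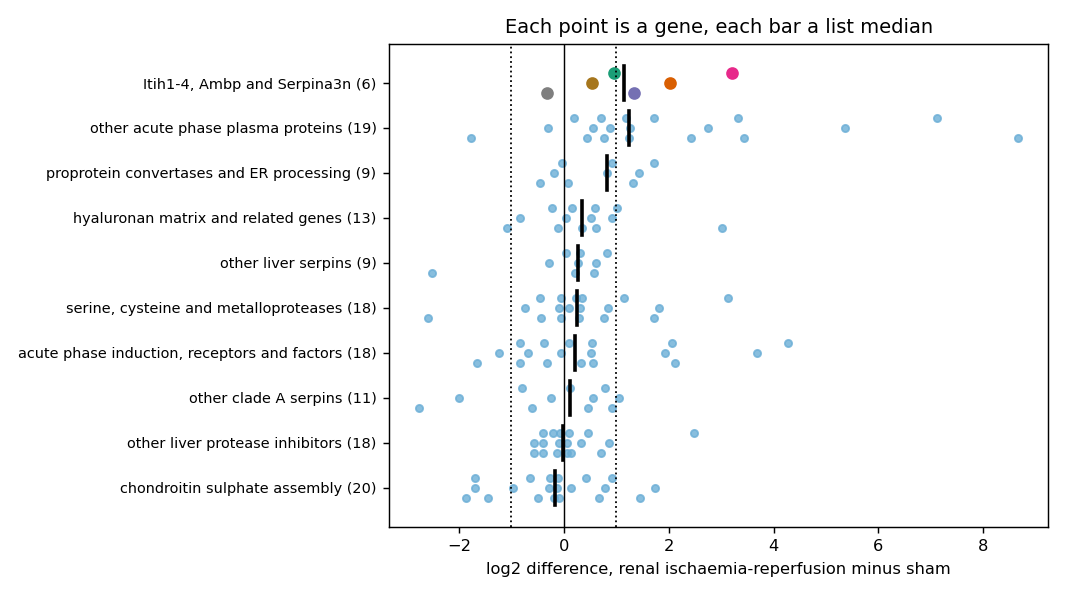
Log2 difference of each gene (points) in the inter-alpha-trypsin and Serpina3n group and in 9 lists of related genes, with the list median as a bar, the number of genes past the filter in brackets and dotted lines at 2-fold. The coloured points of the 6 genes have a median of 1.15, next to 1.24 for other acute phase plasma proteins and above 0.12 for other clade A serpins.

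Genes that act on the heavy chains after translation ran both ways, as did genes over the whole array. Over all genes, 8.71% passed 2-fold upwards and 9.59% downwards. Bikunin and the heavy chains are joined in the Golgi on a chondroitin sulphate chain. Of 20 genes for assembling such chains, 2 passed 2-fold upwards and 4 downwards (median -0.16). Ugdh and Ugp2, which make UDP-glucuronate and UDP-glucose for sugar chains, had the lowest values, at -1.87 and -1.70. Chpf2, a chondroitin polymerising factor, was highest at 1.73. Papss1 and Papss2 both make the sulphate donor and ran opposite ways, with signals of 277.0 and 791.9 for Papss1 (1.46) and of 5566 and 2024 for Papss2 (-1.45). The fourth lower gene was the sulphotransferase Chst7, dim and at least 1.02-fold lower. Papss2 and Chst7 were named after their values were seen. Of 9 proprotein convertases and processing proteins of the endoplasmic reticulum, 3 passed 2-fold upwards and none downwards (median 0.83, but 0.11 when each gene was read by its least different probe set). Pdia4 (1.71), a disulphide isomerase, and Sec61a1 (1.44), a translocon subunit, were the highest of these, whereas the convertases Pcsk5 (-0.46), whose probe sets differed in sign, and Pcsk7 (-0.18) were the lowest.

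In tissue, heavy chains are moved from bikunin to hyaluronan by the enzyme encoded by Tnfaip6, known as TSG-6. Tnfaip6 was under the array median in both liver pools, with signals of 128.2 and 167.9, as was Ptx3, a pentraxin that binds heavy chains in such matrix (17.9 and 89.5). These 2 genes were named for their role after their values were seen. Of 13 genes of the hyaluronan matrix and its relatives that passed the filter, 2 passed 2-fold upwards and 1 downwards (median 0.34). The shares over all genes were 8.71% and 9.59%. Lyve1, a hyaluronan receptor of endothelium, went from 326.8 to 2741 (log2 difference 3.01), and Cemip, which helps degrade hyaluronan, stood at 1.02. Has2, a hyaluronan synthase, was dim and at least 1.06-fold lower, and Stab2, a scavenger receptor that clears hyaluronan in liver sinusoids, stood at -0.83.

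Among 18 proteases past the filter, 4 passed 2-fold upwards and 1 downwards (median 0.26, but -0.02 relative to the hybridisation controls). The shares over all genes were 8.71% and 9.59%. Ctsl, the lysosomal protease cathepsin L, went from 11452 to 40545 (1.82). Ctrb1, a chymotrypsinogen of the pancreas, was at least 4.22-fold higher. The other 2 higher genes, named after their values were seen, were the trypsinogen Prss2 (1.15), whose probe set may cross-hybridise, and the mast cell tryptase Tpsb2, a dim gene at least 1.05-fold higher. Klkb1, plasma prekallikrein, whose active form cuts the Itih4 product in humans, was lower, at 3266 and 529.7 (-2.59), while Itih4 itself was higher. Cma1, a mast cell chymase, stood at -0.75. Gzmb, which encodes the granzyme B that Serpina3n inhibits, was under the array median in both pools (105.5 and 111.5), and was named after its values were seen.

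Of 18 receptors and factors of acute phase induction, 5 passed 2-fold upwards and 2 downwards (median 0.21, but -0.08 relative to the hybridisation controls). The shares over all genes were 8.71% and 9.59%. Il1r1, the interleukin 1 receptor, was at least 18.3-fold higher and Osmr, the oncostatin M receptor, at least 3.81-fold higher. Il1rap, the partner of Il1r1, had a log2 difference of -1.66 and Cebpa, a factor of mature hepatocytes, one of -1.24.

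The tissue label was checked with hepatocyte markers such as Alb and Ttr. All 8 were at or above the array median in both pools, with summed signals of 256503 in the sham pool and 290638 after renal ischaemia-reperfusion and a median log2 difference of 0.09. They were split, 4 being higher, such as Alb (0.73) and Ttr (0.41), and 4 lower, of which Pck1 (-1.18) and Cps1 (-1.12) passed 2-fold. Markers of pancreatic acinar cells moved with the pools: all 8 measured ones were higher after renal ischaemia-reperfusion, with summed signals of 4651 and 12505. The 9 measured neutrophil markers summed to 5310 and 6971, but of the 8 past the filter 5 were higher and 3 lower (median 0.12). S100a8 and S100a9 were at least 5.21-fold and 2.95-fold higher, while Mpo, Csf3r and Ngp lay between 0.07 and 0.37. The lower ones were Cxcr2 (at least 1.14-fold lower), Elane (-0.44) and Ltf (-0.39). The 5 measured biliary markers summed to 761.7 and 2469. Of these, Sox9 was above the array median in both pools (318.8 and 731.2), and Krt19 and Epcam were above it only after renal ischaemia-reperfusion, at least 1.93-fold and 4.38-fold higher. Krt7 (81.3 and 32.0) and Cftr (108.6 and 15.2) were under it in both. Other cell types were mixed by this measure. From sham to renal ischaemia-reperfusion, stellate markers summed to 10713.9 and 13552.3, sinusoidal endothelial ones to 8391.5 and 8485.7, and lymphocyte ones to 3433.0 and 3701.5. Sums were lower for Kupffer cells and macrophages (10691.6 and 7496.1) and for kidney tubule (4050.0 and 3813.0). Of 8 markers each, 6 were lower for Kupffer cells and macrophages (median -0.43) and for sinusoidal endothelium (-0.44), and 5 for stellate cells (-0.4). Lyve1 was 1 of the 2 higher endothelial markers. Markers of lymphocytes and of kidney tubule had medians of 0.11 and -0.11. No signal on either array was 0, the lowest being 0.2. Ctrb1 and Prss2, given above as higher proteases, are among the acinar markers. The part of the cell types in the differences of Serpina3n, Spink1, Ctrb1 and Prss2 was not tested.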

How the data were processed

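Total RNA of 2 liver pools was labelled with biotin from 6 ug by the Affymetrix protocol, per the labels' protocols, and each pool was read on 1 array. The deposited values are 1 intensity per probe set on a linear scale. After trimming 2% from either end their mean was 500.0 for each array, so the authors had scaled them. The sources used here do not name the software or any background step.

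Of 45037 probe sets that are not controls, 34945 had 1 gene in the platform annotation, which can be old, 932 had several and 9160 were unnamed here. For 34741, Entrez IDs gave the current symbol. A probe set passed when either signal reached its array's median (257.0 sham, 254.1 renal ischaemia-reperfusion), and the brightest represented its gene. A gene dim on 1 array has a bound against that array's median if its other signal exceeds that median. Differences used log2(intensity + 16), with a 2-fold threshold and no test. The number of arrays limits the precision. The steps were tested on simulated data (Python 3.11.15, numpy 2.4.6, pandas 2.3.3, statsmodels 0.14.6).

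The members and lists were chosen with earlier results of these data known. Of the 22 other clade A serpins listed, the 13 with a probe set for that gene alone were named. Of other lists the 2 highest and 2 lowest genes were named, with exceptions stated. Promoter letters came from RefSeq. Settings tried were pseudocounts of 1 and 64, 4 scalings, 3 filters, dim signals raised to the median, 3 rules for probe sets and thresholds of 1.5-fold and 3-fold.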

Additional observations from a re-analysis of the deposited data

How the results depend on the processing

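With 1 array per pool, no replicate could be left out, and the pools came from different mice. No paired analysis was possible because each group held 1 pool. The 6 genes kept their direction in all 13 settings, and none moved by as much as the 0.72 SD between probe sets of a gene. At least 2-fold higher were 3 of the 6 genes in all 13 settings, in which 5.14% to 9.18% of all genes were. At 1.5-fold 4 of the 6 were higher, against 18.7% of all genes, and at 3-fold 2, against 3.6%. Counts over all genes depended more on the setting. From 1143 higher and 1258 lower genes, they went to 756 and 2016 with hybridisation controls as the reference. A filter at the 75th percentile gave 682 and 797, and both signals at or above the median gave 563 and 676. Those filters also left fewer genes, 8145 and 10950 in place of 13117. The upward shares were then 8.37% and 5.14%, against 8.71%. The counts were 2449 and 2536 at 1.5-fold and 472 and 589 at 3-fold. With dim signals raised to the median, 733 genes were at least 2-fold higher. No median of the 9 lists moved by over 0.72. That of clade A serpins kept its sign in 8 of 13 settings and ranged from -0.25 to 0.21, that of liver protease inhibitors outside the serpins kept it in 9 (-0.30 to 0.08), that of acute phase induction kept it in 11, and the cause was not tested. Choosing another probe set changed none of the 6 genes, since each had 1. The filters and the raised dim signals changed none either, since all 6 were bright.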
